A study of Mus musculus with 56 samples.

Results

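The genes described are 32 transcripts of tissues that lie next to the gut or share its wall. They comprise 12 genes of skeletal muscle, 10 of squamous epithelium and 10 of the exocrine pancreas. They were listed by name, with earlier results of these data known. In each tissue table a gene was represented by the probe set annotated to it alone that had the highest mean signal. A probe set of that kind was found for 30 of the 32 genes, among 18194 genes on the array, and it covered all 12 muscle genes, 9 squamous genes and 9 pancreas genes. Signals of Dsg3 and Pnlip were not analysed here.

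The arrays came from whole colon and whole jejunum of wild type (WT) mice and of mice lacking Tweak (genotype Tweak_KO, here KO), all of strain BALB/C. The missing gene, Tnfsf12, encodes a secreted signalling protein related to tumour necrosis factor. All groups carry the same label of 3 Gy of ionizing radiation, followed by 0, 6 or 24 h, and the labels do not say whether the mice of the 0 h groups had been irradiated. There were 56 arrays, and those of 1 group came from different mice, per the design text. For 0, 6 and 24 h in that order, colon had 5, 4 and 4 WT arrays and 5 KO arrays each time, and jejunum had 5, 5 and 4 WT arrays and 5, 4 and 5 KO arrays.

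Skeletal muscle contracts by sliding thick filaments, built of myosin heavy and light chains, along thin filaments of actin whose access is controlled by the troponin complex. Stratified squamous epithelium renews itself from a basal layer that expresses keratins such as Krt5 and Krt14 under the transcription factor Trp63, and its upper layers make Krt4, Krt13 and cornified envelope proteins. Acinar cells of the exocrine pancreas make the digestive proteases, lipases and their cofactors in very large amounts. The anal canal is lined by squamous epithelium and ringed by a sphincter of skeletal muscle, and the pancreas lies against the duodenum and the transverse colon. The wall of the gut itself holds smooth muscle and a simple columnar epithelium.

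All values are log2 signals deposited by the authors, normalized within each tissue, with a common lowest value (floor) of 2.28 in colon and 2.32 in jejunum. Signals of different genes come from different probes and were not compared with each other, and no test was made between colon and jejunum. Intestinal epithelium genes were high in both tissues and hindgut Hox genes only in colon. No list of jejunal markers was examined. The mean of 9 intestinal epithelium genes lay between 11.6 and 12.2 on every array of both tissues. Hindgut Hox genes averaged 5.08 to 6.35 on the colon arrays and 2.32 to 2.46, at the floor, on the jejunum arrays. All WT arrays share 1 of 2 batches with 1 KO array per tissue, KO 0 h replicate 1. The other 27 KO arrays form the second. Batches were read from the array file names, except for colon KO 24 h replicate 3, which no column of the colon table matched. It was given the batch of the other arrays of its group. A difference between genotypes could therefore not be told apart from a difference between batches, except through that single KO array per tissue. In bulk tissue, fewer cells of a type and less RNA per cell cannot be told apart either.

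Many genes of the muscle set and of the pancreas set were high on the same arrays as others of their set, with exceptions such as Myh4 and Clps. The sequence just before the transcription start is shown for some genes on which the results turn. The windows come from RefSeq on build GRCm38.p6 and end before the start given there, which for Ttn lies a few bases inside the annotated gene. A window was found for 9 muscle, 6 squamous and 9 pancreas genes. The pancreas windows include that of Pnlip, which has no signal here, and none of Clps. The MEF2 box, the site of a muscle transcription factor family, was found in the windows of 4 of 9 muscle genes (Myh1, Myh4, Myh8 and Ttn), in none of 6 squamous genes, in 1 of 9 pancreas genes and in 2.92% of all 32851 windows of that length. The CArG box, the site of serum response factor, was found in 2 of 9 muscle genes (Myh4 and Acta1) and in 1.47% of all windows. In the sequences below, read 5′ to 3′ on the strand of the gene, capitals mark these boxes, searched on both strands. The windows lie at chr11:67199852-67200101 (plus strand), chr11:67237562-67237811 (plus strand), chr11:67276874-67277123 (plus strand) and chr2:76982548-76982797 (minus strand). Myh1, Myh4 and Myh8 hold the same 10 letters, 211, 182 and 99 bases before their starts, and the letters of Ttn differ.
Myh1: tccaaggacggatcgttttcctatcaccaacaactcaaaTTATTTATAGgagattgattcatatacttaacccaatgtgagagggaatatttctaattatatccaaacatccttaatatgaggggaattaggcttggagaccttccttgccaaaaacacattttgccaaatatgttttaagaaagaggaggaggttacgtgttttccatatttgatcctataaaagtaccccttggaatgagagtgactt
Myh4: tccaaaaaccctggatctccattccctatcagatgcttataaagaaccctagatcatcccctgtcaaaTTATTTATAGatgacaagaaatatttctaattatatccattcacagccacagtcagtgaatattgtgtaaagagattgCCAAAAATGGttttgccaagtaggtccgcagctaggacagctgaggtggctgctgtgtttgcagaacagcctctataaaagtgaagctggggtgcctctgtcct
Myh8: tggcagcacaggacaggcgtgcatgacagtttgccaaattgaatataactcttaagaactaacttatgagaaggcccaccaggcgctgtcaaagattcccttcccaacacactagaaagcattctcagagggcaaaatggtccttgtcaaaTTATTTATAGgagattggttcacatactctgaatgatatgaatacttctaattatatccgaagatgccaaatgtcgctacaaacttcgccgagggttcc
Ttn: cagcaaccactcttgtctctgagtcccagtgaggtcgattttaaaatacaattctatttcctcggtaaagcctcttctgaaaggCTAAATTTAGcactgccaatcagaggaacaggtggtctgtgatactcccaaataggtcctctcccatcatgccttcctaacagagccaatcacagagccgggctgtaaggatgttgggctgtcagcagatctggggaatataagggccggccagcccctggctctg

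For the pancreas genes, capitals mark TGGGAAA, the core of the site of the acinar factor PTF1, and CANNTG, the E-box that accompanies it, on either strand. TGGGAAA was found in 4 of 9 pancreas windows (Cel, Cela2a, Cpa1 and Ctrb1), in 2 of 6 squamous windows, in 0 of 9 muscle windows and in 6.82% of all windows. CANNTG is common and was found in 66.2% of all windows and in 8 of 9 pancreas windows, all but that of Pnlip. The windows shown lie at chr4:141826006-141826255 (minus strand), chr6:30638968-30639217 (plus strand) and chr8:111691011-111691260 (minus strand). A match describes the letters only.
Cela2a: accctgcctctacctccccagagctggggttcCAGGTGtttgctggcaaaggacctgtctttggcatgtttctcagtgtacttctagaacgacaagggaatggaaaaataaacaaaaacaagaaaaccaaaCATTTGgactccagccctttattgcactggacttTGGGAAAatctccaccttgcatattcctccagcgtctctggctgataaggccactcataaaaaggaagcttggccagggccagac
Cpa1: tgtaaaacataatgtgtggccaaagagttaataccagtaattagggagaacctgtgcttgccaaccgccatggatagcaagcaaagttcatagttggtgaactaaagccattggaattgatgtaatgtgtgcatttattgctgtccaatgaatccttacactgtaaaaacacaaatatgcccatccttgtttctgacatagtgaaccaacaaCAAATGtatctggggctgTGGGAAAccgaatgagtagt
Ctrb1: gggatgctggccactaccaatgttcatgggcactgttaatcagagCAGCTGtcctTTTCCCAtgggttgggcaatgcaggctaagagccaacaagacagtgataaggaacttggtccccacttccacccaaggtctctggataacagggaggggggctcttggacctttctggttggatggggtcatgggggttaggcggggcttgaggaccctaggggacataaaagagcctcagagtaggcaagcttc

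Before the comparisons, the arrays were described one by one. A gene was counted as raised on an array where it stood at least 2 log2 units above its own median over the 28 arrays of the tissue. In colon 9 arrays had 3 or more muscle genes raised, 5 arrays had 3 or more squamous genes raised, and 6 had 3 or more pancreas genes raised. Muscle and squamous genes were raised together on 4 of those arrays, and on 13 arrays none of the 3 sets was raised to that extent. The heat map of colon signals shows these arrays as vertical stripes. Pancreas genes were raised without either other set on 5 arrays. WT 0 h replicate 2 was the only colon array on which all 3 sets were raised, with 4 of 12 muscle, 9 of 9 squamous and 7 of 9 pancreas genes. On that array a list of stomach genes averaged 5.26, against 2.32 to 3.42 on the other colon arrays.

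**Figure D1:**
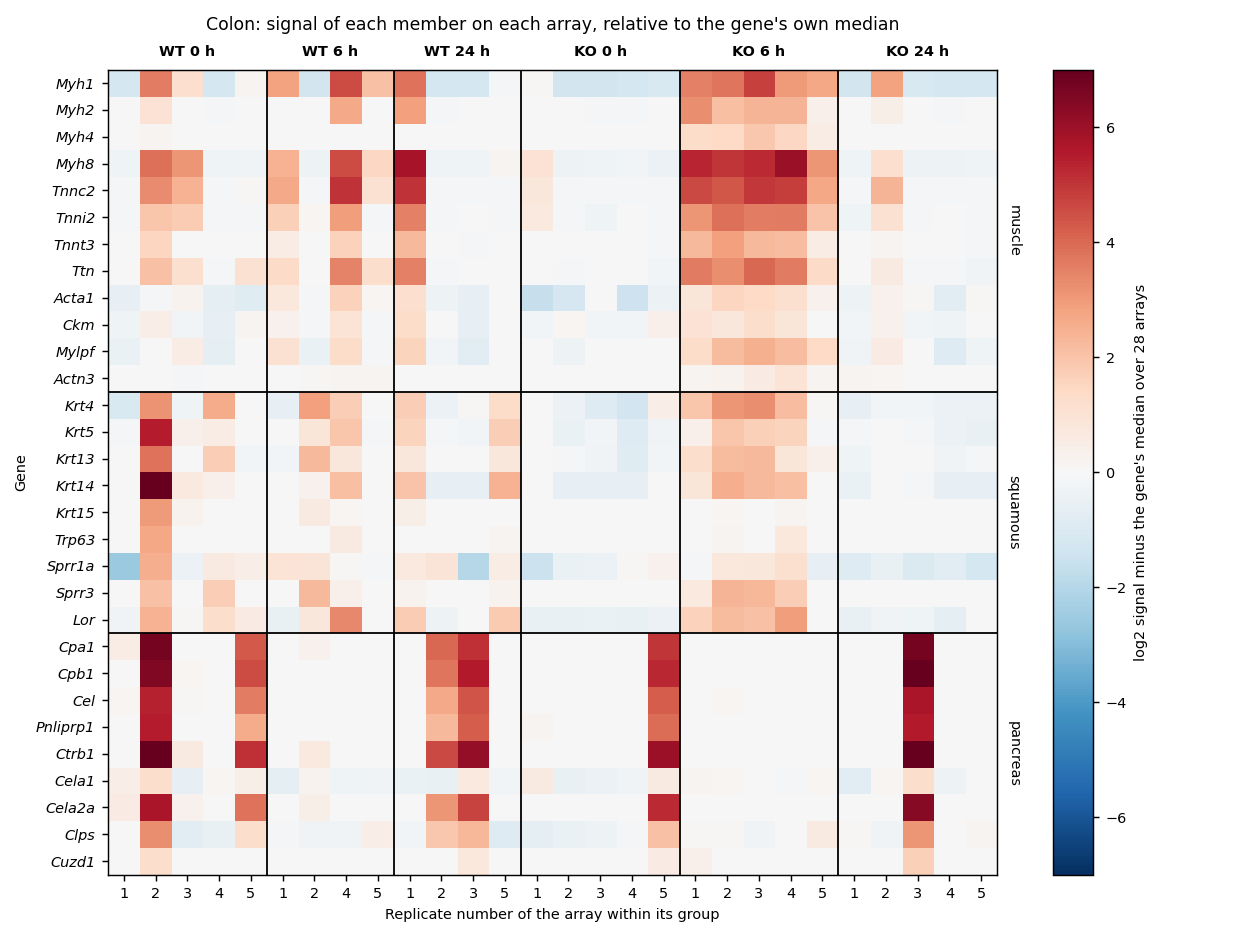
Signal of the 30 measured genes (rows) on each of the 28 colon arrays (columns, by group and replicate number), as log2 signal minus the gene's own median over the arrays. Muscle genes are high on all 5 KO 6 h arrays and on single WT arrays, all 9 squamous genes are high on WT 0 h replicate 2, and pancreas genes are high on 6 arrays of the 0 h and 24 h groups.

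The comparison of KO colon at 6 h with KO colon at 0 h (5 arrays each) was the one in which most of the listed genes passed the test. Skeletal muscle genes were higher at 6 h, with 11 of 12 called at an adjusted p under 0.05 by limma, while 1.48% of the 13645 genes tested were called in that comparison in either direction and 1.26% were called higher. As the list was chosen with earlier results of these data known, the count and its p-values describe these arrays and are not independent support. The called genes encode myosin heavy chains (Myh1, Myh2, Myh4, Myh8), a myosin light chain (Mylpf), troponins (Tnnc2, Tnni2, Tnnt3), skeletal alpha actin (Acta1), alpha actinin 3 (Actn3) and the giant elastic protein titin (Ttn). For each of these 11 genes, all 5 arrays at 6 h lay above all 5 at 0 h, which held for 1.94% of all genes in that direction, and the exact two-sided permutation test gave p = 0.00794, the smallest that 5 against 5 arrays allow. The median difference was 2.09 over the 12 muscle genes and -0.01 over all genes tested.

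Myh8, the perinatal myosin heavy chain, had the largest difference of all 13645 genes. Its values were 8.01, 7.72, 7.92, 8.75 and 5.81 on the KO 6 h arrays, 3.71, 2.35, 2.39, 2.52 and 2.28 on the KO 0 h arrays and 2.39, 3.87, 2.35, 2.35 and 2.39 on the KO 24 h arrays. The 6 h arrays stood apart from the others, and at 0 h and 24 h only replicate 1 and replicate 2, respectively, were well above the floor. The difference between 6 h and 0 h was 4.99 ± 1.02 (SE, limma, adjusted p = 0.00914), or 31.9-fold, a fold measured against values near the floor. In WT colon Myh8 was 2.39, 6.55, 5.80, 2.39 and 2.48 at 0 h, 5.16, 2.35, 7.27 and 4.14 at 6 h and 8.47, 2.39, 2.39 and 2.90 at 24 h. Each WT group thus held arrays near the floor beside at least 1 array within the range of the KO 6 h group.

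Myh1, the myosin of fast IIx fibres, followed the same arrays. It read 7.07, 7.30, 8.36, 6.55 and 6.24 on the KO 6 h arrays and 3.63, 2.28, 2.28, 2.34 and 2.47 on the KO 0 h arrays, a difference of 4.51 ± 1.04 (limma adjusted p = 0.0248). At KO 24 h it read 2.28, 6.36, 2.49, 2.34 and 2.33, with replicate 2 within the range of the 6 h arrays. WT values were 2.33, 7.13, 4.72, 2.30 and 3.74 at 0 h, 6.39, 2.28, 8.12 and 5.62 at 6 h and 7.35, 2.34, 2.33 and 3.48 at 24 h. Of its 3 probe sets a second one gave the same difference of 4.51, and the third stood at the floor on every colon array. The myosin genes resemble each other closely, and the Myh1 probe set used here is of the type whose probes can also match related transcripts.

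Tnnc2, the calcium-binding troponin C of fast fibres, read 7.0, 6.72, 7.34, 7.23 and 5.08 at KO 6 h and 3.16, 2.28, 2.28, 2.28 and 2.29 at KO 0 h. All but replicate 1 of the 0 h arrays lay at or close to the floor, and the difference was 4.22 ± 0.934 (limma adjusted p = 0.0182). At KO 24 h its values were 2.28, 4.79, 2.28, 2.28 and 2.28. WT values were 2.31, 5.72, 4.82, 2.28 and 2.45 at 0 h, 5.04, 2.28, 7.43 and 3.47 at 6 h and 7.42, 2.28, 2.29 and 2.29 at 24 h. The 2 highest WT arrays, WT 6 h replicate 4 and WT 24 h replicate 1, were as high as the highest KO 6 h array.

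Ttn runs from the Z disc to the M line of the sarcomere. It read 6.19, 5.81, 6.59, 6.18 and 3.90 at KO 6 h, 2.49, 2.46, 2.49, 2.55 and 2.36 at KO 0 h and 2.49, 3.19, 2.47, 2.47 and 2.28 at KO 24 h. The lowest 6 h array, replicate 5, was also the lowest for Myh8, Myh1 and Tnnc2. The difference between 6 h and 0 h was 3.26 ± 0.624 (limma adjusted p = 0.00562). In WT colon Ttn was 2.49, 4.59, 3.65, 2.47 and 3.60 at 0 h, 3.89, 2.52, 6.03 and 3.79 at 6 h and 6.08, 2.47, 2.49 and 2.55 at 24 h.

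The other called muscle genes differed by 3.20 (Tnni2, the inhibitory troponin), 2.13 (Myh2, the IIa myosin), 2.05 (Tnnt3, which ties troponin to tropomyosin), 1.99 (Mylpf), 1.97 (Acta1), 1.30 (Myh4) and 0.45 (Actn3). The call of Myh2 (limma adjusted p = 0.0363) was lost, with adjusted p up to 0.113, when any 1 of 9 of the 10 arrays was left out. Myh1 was lost without KO 0 h replicate 2, 4 or 5 or KO 6 h replicate 2 or 3 (limma adjusted p = 0.0533 to 0.0737), and Tnnc2 without KO 0 h replicate 5 or KO 6 h replicate 3 (0.0509 and 0.0516). Myh2 was also lost without the filter on dim genes (0.0696), with robust eBayes (0.0519) and with batch as a term (0.0608). When only the KO 6 h and 0 h groups were fitted, Myh2 (0.0771), Tnnt3 (0.0546), Acta1 (0.053) and Actn3 (0.192) were lost. Ckm, the muscle creatine kinase, was the exception. Its values were 7.43, 7.24, 7.66, 7.29 and 6.44 at KO 6 h and 6.26, 6.56, 6.25, 6.26 and 6.80 at KO 0 h, which overlap through replicate 5 of the 6 h group, and the difference of 0.78 ± 0.274 was not called (limma adjusted p = 0.176). At KO 24 h Ckm was 6.26, 6.74, 6.26, 6.16 and 6.44, and over the WT groups it ran from 5.89 to 7.71. Ckm and Acta1 were well above the floor on every colon array, at 5.85 or higher.

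**Figure D2:**
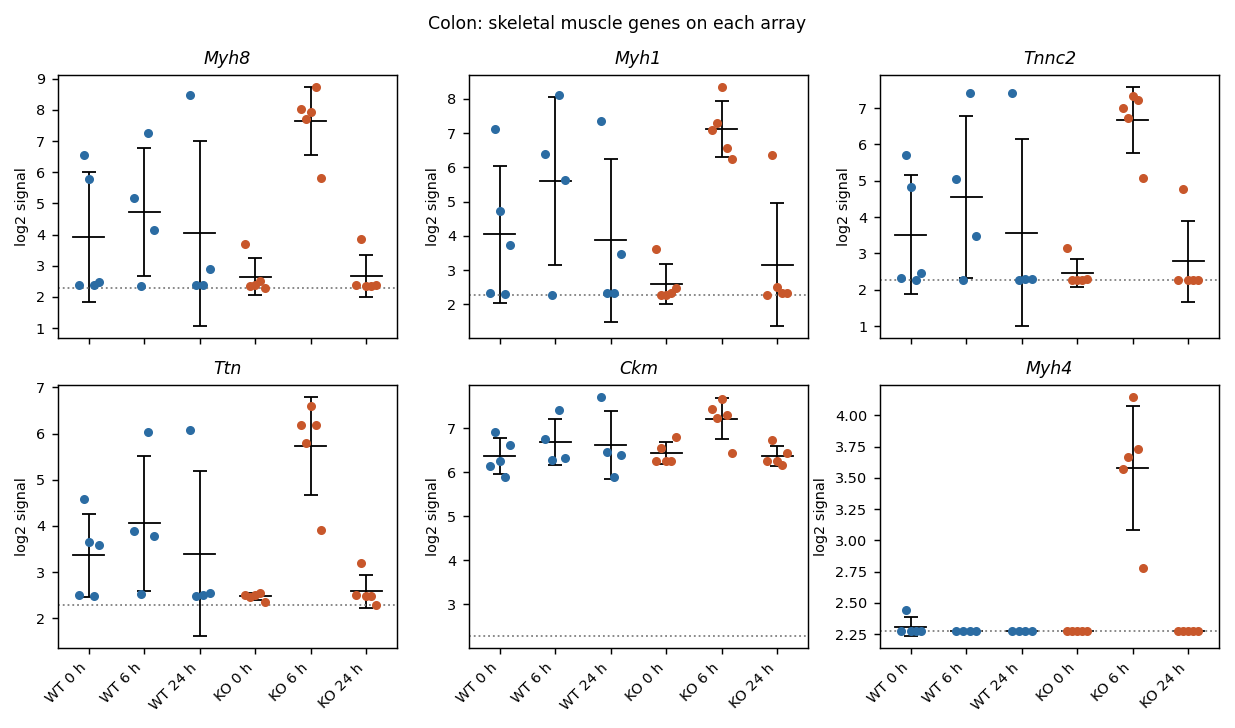
Log2 signal of 6 skeletal muscle genes on each colon array by genotype and time (points, WT blue and KO orange), with the group mean and SD (black) and the table's floor (dotted). Myh8, Myh1, Tnnc2 and Ttn are high on all 5 KO 6 h arrays and on single arrays of the WT groups, Ckm overlaps between groups, and Myh4 leaves the floor on the KO 6 h arrays and on 1 WT 0 h array.

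Further genes of skeletal muscle outside the list, chosen with earlier results of these data known, went the same way. Of 21 tested, 10 were called higher at KO 6 h than at 0 h and 0 lower, led by Mb, the oxygen store myoglobin (2.56), Atp2a1, the calcium pump of fast fibres (2.2), and Sln, its regulator sarcolipin (1.98). Of 4 genes of slow or embryonic muscle tested, Myl3 was called (1.05). None of 3 cardiac genes was called, none at an unadjusted p under 0.05. None of 10 smooth muscle genes was called by limma, with 7 at an unadjusted p under 0.05, and their differences were all negative (median -0.24). The 3 adipose genes tested were also lower at 6 h, by 1.25 to 2.28 log2 units, with 0 called by limma and 2 at an unadjusted p under 0.05. Adipoq, the fat cell hormone adiponectin, had the most negative difference of all genes tested (-2.28, limma adjusted p = 0.298). The part of fat or smooth muscle in the muscle differences was not tested. Of the 172 genes called higher in that comparison, 12.8% were on the 3 skeletal muscle lists, and these supplied 9 of the 20 largest rises.

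Between 6 h and 24 h in KO colon the direction turned. At 24 h 8 of the 12 muscle genes were called lower and 0 higher, with 1.29% of all genes called in that comparison, 0.791% lower. The fall was 4.97 for Myh8, 3.89 for Tnnc2, 3.15 for Ttn, 3.13 for Tnni2, 2.08 for Mylpf, 2.01 for Tnnt3, 1.30 for Myh4 and 0.37 for Actn3. Myh1 (-3.95, limma adjusted p = 0.0577) and Myh2 (-2.03, limma adjusted p = 0.0525) were not called, with KO 24 h replicate 2 above the lowest 6 h array in both. The call of Tnnc2 was lost without any 1 of KO 6 h replicates 1 to 4 or KO 24 h replicates 1, 3, 4 and 5 (limma adjusted p = 0.0673 to 0.0883), and that of Actn3 without KO 6 h replicate 3 or KO 24 h replicate 2, 3, 4 or 5 (0.0602 to 0.095). Both were lost without the filter on dim genes (0.0696 and 0.0624), and Actn3 also with array medians centred (0.0545) and with only the groups compared in the fit (0.242). This comparison and the one before it share the 5 KO 6 h arrays. Of the other skeletal muscle genes 9 of 21 were called lower, led by Mb (-2.29), Atp2a1 (-2.15) and Sln (-1.94), and of the smooth muscle genes Smtn (0.48) and Acta2 (0.34) were called higher. KO 24 h against KO 0 h had 0 of 30 listed genes called by limma, 1 at an unadjusted p under 0.05, with 0.183% of all genes called.

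In WT colon none of the 30 listed genes was called by limma at 6 h against 0 h (1 at an unadjusted p under 0.05, 2.18% of all genes called), at 24 h against 0 h (0 and 5.29%) or at 24 h against 6 h (0 and 0.242%). The muscle signals varied widely among arrays of each WT group. The muscle set mean, the average log2 signal over the 12 genes, was 3.08 to 4.87 at WT 0 h, 3.20 to 5.81 at WT 6 h and 3.08 to 5.96 at WT 24 h. In KO colon it was 3.11 to 3.45 at 0 h, 4.65 to 6.29 at 6 h and 3.08 to 4.22 at 24 h. The number of muscle genes raised was 3 to 8 on each of the 5 KO 6 h arrays and 0 on all 5 KO 0 h arrays. Among WT arrays, 4 had 3 or more muscle genes raised: WT 24 h replicate 1 with 7, WT 6 h replicate 4 with 6, WT 0 h replicate 2 with 4 and WT 6 h replicate 1 with 3.

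Between genotypes, KO minus WT colon at 0 h had 0 of 30 listed genes called by limma (4 at an unadjusted p under 0.05, 2.07% of all genes called) and at 24 h also 0 (0 at an unadjusted p under 0.05, 0.469%). At 6 h 1 of 30 was called, Myh4, against 0.879% of all genes. A further 8 muscle genes had an unadjusted p under 0.05, 9 of the 30 with Myh4, and the median difference of the 12 muscle genes was 1.48. Of the other skeletal muscle genes Neb (0.78) and Tcap (0.94) were called higher in KO, and the cardiac actin gene Actc1 (-1.20) was called lower. Myh8 was 2.92 ± 1.08 higher in KO at 6 h and did not pass (limma adjusted p = 0.243), with 1 of 4 WT arrays (7.27) inside the KO range of 5.81 to 8.75. The test of whether the change from 0 h to 6 h differed between genotypes called 3 of 13645 genes (0.022%), and Myh4 was the only listed one, although 14 of the 30 had an unadjusted p under 0.05. For Myh8 that difference of changes was 4.19 ± 1.48 and was not called (limma adjusted p = 0.317). The same test at 24 h called 0 listed genes, 0 at an unadjusted p under 0.05, and 0.0293% of all genes.

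Myh4, the myosin of the fastest IIb fibres, was singled out after its values were seen. It read 3.57, 3.67, 4.15, 3.73 and 2.78 on the KO 6 h arrays and stood at the floor of 2.28 on all 10 other KO colon arrays. It was also at the floor on 12 of 13 WT arrays, with 2.45 on WT 0 h replicate 2. Myh4 thus passed the filter on dim genes, with a mean of 2.51 against a cut-off of 2.31, only through the KO 6 h arrays. Its calls are therefore no independent support. The KO minus WT difference at 6 h was 1.30 ± 0.138 (limma adjusted p = 2.22e-06, exact permutation p = 0.0159, the smallest that 5 against 4 arrays allow). The limma SE pools the spread of all 6 groups. The SD of Myh4 was 0 in WT 6 h, WT 24 h, KO 0 h and KO 24 h and 0.498 in KO 6 h. With batch as a term the KO minus WT difference at 6 h was 1.30 with a limma adjusted p of 0.0526, a value that rests on the 1 KO array shared with the WT batch. The difference of changes from 0 h was 1.34 ± 0.189 (limma adjusted p = 0.00287) and its adjusted p was 0.11 when only the groups compared entered the fit. On WT 24 h replicate 1 and WT 6 h replicate 4, where Myh8 reached 8.47 and 7.27, Myh4 stayed at the floor, although KO 6 h replicate 5 had 2.78 beside a Myh8 of 5.81. The second probe set of Myh4 lay at 2.28 to 2.29 on every colon array. Myh4 lies at chr11:67237812-67260447 (GRCm38.p6), within a cluster with Myh1, Myh2 and Myh8 whose members lie 2.38 to 2.49 Mb from Tnfsf12, the targeted gene.

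Squamous genes were described next, from the basal layer upwards. On KO 6 h against KO 0 h arrays of colon none of the 9 was called by limma, while 5 had an unadjusted p under 0.05 and the median difference was 1.45. The differences were 2.53 for Krt4, 2.23 for Lor, 1.91 for Krt14, 1.66 for Krt13, 1.45 for Krt5, 1.42 for Sprr3, 0.80 for Sprr1a, 0.19 for Trp63 and 0.07 for Krt15, with limma adjusted p between 0.0652 and 0.976. For Krt13, Sprr3 and Lor the arrays of both groups did not overlap, as for 1.94% of all genes, and for Sprr3 KO 6 h replicate 5 (2.31) and the highest 0 h array (2.30) were both at the floor region. Without KO 6 h replicate 5, which had 0 squamous genes raised, Krt4, Sprr3 and Lor passed (limma adjusted p = 0.028, 0.0297 and 0.016). Of 21 further squamous genes, Sbsn, the suprabasal protein suprabasin, was called higher at KO 6 h (3.42), and at KO 24 h against 6 h Krtdap (-4.37) and Sbsn (-3.51) were called lower. Both are made in the upper layers of stratified epithelium.

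Krt14, a basal keratin, read 3.45, 10.43, 4.17, 3.80 and 3.41 on the WT 0 h arrays of colon. Replicate 2 thus stood more than 6 log2 units above the others. At WT 6 h it was 3.46, 3.76, 5.58 and 3.46 and at WT 24 h 5.48, 2.89, 2.89 and 5.90. In KO colon it was 3.44, 2.89, 2.90, 2.90 and 3.46 at 0 h, 4.33, 6.01, 5.73, 5.59 and 3.46 at 6 h and 2.98, 3.46, 3.32, 2.90 and 2.89 at 24 h. The KO 0 h and 24 h arrays were all at 3.46 or below, and 4 of the 5 KO 6 h arrays were above them.

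Krt5, the partner of Krt14 in basal cells, had its highest value on the same array. Its values were 3.93, 9.56, 4.41, 4.58 and 4.05 at WT 0 h, 4.05, 4.91, 5.95 and 3.94 at WT 6 h and 5.61, 3.93, 3.87 and 5.77 at WT 24 h. In KO colon they were 4.05, 3.56, 3.82, 3.16 and 3.77 at 0 h, 4.37, 6.00, 5.72, 5.59 and 3.92 at 6 h and 3.93, 4.02, 3.93, 3.61 and 3.54 at 24 h. All groups overlapped at the lower end. The squamous set mean over colon arrays ran from 3.46 to 7.48, a range of 4.01 that shrank to 2.17 without WT 0 h replicate 2.

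The squamous genes were not high as one block, as the plot of 6 of them shows. On WT 0 h replicate 2, 9 of 9 were raised, with Trp63, the regulator of basal cells, at 5.01 and Krt15, another basal keratin, at 5.34. On every other colon array Trp63 was at 3.03 or below and Krt15 at 2.99 or below. WT 0 h replicate 4 and WT 6 h replicate 2 had high Krt4 (6.69 and 6.98), Krt13 (6.44 and 7.01) and Sprr3 (4.05 and 4.55), which mark upper layers of internal squamous linings. On those same arrays Krt14 was 3.80 and 3.76, within the range of the other arrays of their groups. The other basal keratins were not all low there. Krt5 was 4.58 and 4.91, above its colon median of 4.04, and Krt15 was 2.38 and 2.99, against a median of 2.38. WT 24 h replicate 5 had Krt14 at 5.90 and Krt5 at 5.77 with Sprr3 at 2.54. Its Krt4 (5.39), Krt13 (5.53) and Lor (6.56) were also above their colon medians of 4.10, 4.71 and 4.71. KO 6 h replicates 2, 3 and 4 had both kinds, with Krt4 at 7.17, 7.34 and 6.27 and Krt14 at 6.01, 5.73 and 5.59. Lor, the main protein of the cornified envelope, was highest on WT 6 h replicate 4 (8.09), and Sprr1a, a cross-linked envelope precursor, on WT 0 h replicate 2 (9.76).

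**Figure D3:**
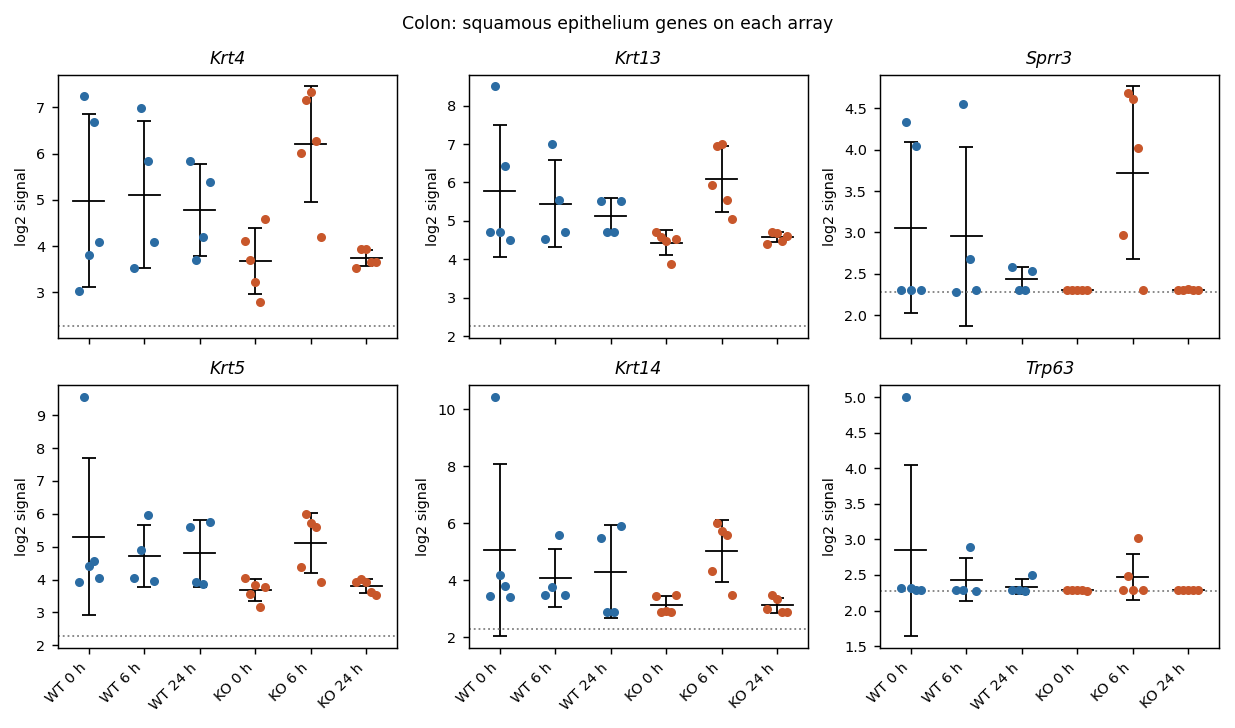
Log2 signal of 6 squamous epithelium genes on each colon array by genotype and time (points, WT blue and KO orange), with the group mean and SD (black) and the table's floor (dotted). Krt5, Krt14 and Trp63 peak on 1 WT 0 h array, and Krt4, Krt13 and Sprr3 are high on further WT 0 h and WT 6 h arrays and on most KO 6 h arrays.

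Most pancreas genes in colon were either near the floor or well above it, with Cela1, Clps and Cuzd1 as exceptions. Pancreas genes were raised on WT 0 h replicates 2 and 5, WT 24 h replicates 2 and 3, KO 0 h replicate 5 and KO 24 h replicate 3, with 6 or 7 of 9 genes raised on each. KO 24 h replicate 3, which had the highest pancreas set mean in colon (8.79), is the array that matched no column of the colon table and was read from the deposited value table. On all 9 arrays of the 6 h groups 0 were raised. None of the 9 pancreas genes was called by limma in any of the 11 colon comparisons. At KO 6 h against 0 h the differences ran from -1.20 to 0.07, 0 at an unadjusted p under 0.05.

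Ctrb1, chymotrypsinogen B, read 2.28, 9.61, 2.92, 2.28 and 7.38 at WT 0 h, 2.28, 2.95, 2.28 and 2.28 at WT 6 h and 2.28, 6.92, 8.40 and 2.28 at WT 24 h. It read 2.28, 2.28, 2.28, 2.28 and 8.28 at KO 0 h and 2.28, 2.28, 9.74, 2.28 and 2.28 at KO 24 h, and it stood at the floor of 2.28 on all 5 KO 6 h arrays. In both KO groups with any signal a single array carried it. Cpb1, procarboxypeptidase B, read 2.28, 8.78, 2.42, 2.28 and 6.83 at WT 0 h and 2.28, 6.04, 7.81 and 2.28 at WT 24 h, and it was at the floor on all 9 arrays at 6 h. In KO it was 7.56 on 0 h replicate 5, 9.67 on 24 h replicate 3, and at the floor on the other 8 arrays of these times.

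Cpa1 (procarboxypeptidase A), Cel (bile salt lipase), Pnliprp1 (a pancreatic lipase relative) and Cela2a (a pancreatic elastase) were raised on the same 6 arrays as Ctrb1 and Cpb1. Their highest colon values were 8.96, 8.0, 7.83 and 8.70. Cuzd1, a zymogen granule membrane protein, was at 2.86 or higher only on WT 0 h replicate 2, WT 24 h replicate 3, KO 0 h replicate 5 and KO 24 h replicate 3, and never exceeded 3.96. It also read 2.61 on KO 6 h replicate 1, where 0 of 9 pancreas genes were raised. Cela1, an elastase, and Clps, the colipase that anchors pancreatic lipase to fat, were high on every colon array, from 9.49 to 11.52 and from 6.74 to 10.91. Those 2 genes thus carried signal on arrays where the other 7 were at or near the floor, and their 3 highest values each fell on arrays where the others were raised. Below these, Cela1 did not follow the others. It was 10.88 on KO 0 h replicate 1, where 0 pancreas genes were raised. On WT 24 h replicate 2, with 6 of 9 raised, it was 9.74, below its colon median of 10.26.

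In jejunum the pattern of the 3 sets was different. None of the 12 muscle and 9 squamous genes was raised on any of the 28 arrays. For Myh1, Myh4 and Tnni2 the highest mean picked other probe sets than in colon. Those of Myh1 and Myh4 had stood at 2.28 to 2.29 on every colon array, so their jejunum values say little. The probe sets used in colon reached at most 2.41, 2.52 and 2.79 for these 3 genes in jejunum. The muscle set mean ran from 2.54 to 2.86 and the squamous set mean from 2.52 to 2.79, near the floor of 2.32. The filter on dim genes left 19 of the 30 genes, namely 6 muscle, 4 squamous and 9 pancreas genes. Ttn was at or near the floor except on WT 6 h replicate 2, with 4.29, and the remaining 27 arrays lay between 2.32 and 2.60. Ckm ran from 3.40 on KO 0 h replicate 3 to 5.05 on WT 24 h replicate 2. Sprr1a ran from 2.81 to 5.02, with its highest value on KO 0 h replicate 3, and Lor from 2.41 to 3.75. Neither set had a called gene in any of the 11 comparisons.

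Pancreas genes, in contrast, covered some of the widest ranges of the jejunum table. The pancreas set mean ran from 3.51 on WT 24 h replicate 2 to 12.69 on WT 24 h replicate 3, 2 arrays of the same group. With 3 or more genes raised, 12 of 28 arrays counted, 9 WT and 3 KO. The 4 KO 6 h arrays were the most alike, with set means of 3.74 to 3.85. At KO 24 h 1 of 5 arrays stood out, at 8.72.

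Ctrb1 read 7.53, 13.07, 7.42, 3.08 and 10.87 at WT 0 h, 2.36, 11.30, 10.07, 3.16 and 2.50 at WT 6 h and 9.58, 2.54, 13.60 and 12.69 at WT 24 h. In KO jejunum it read 2.36, 6.24, 2.54, 6.87 and 6.46 at 0 h, 2.36, 2.49, 2.36 and 2.36 at 6 h and 2.36, 2.40, 2.33, 9.59 and 5.24 at 24 h. Each WT group and the KO 0 h and 24 h groups held arrays near the floor beside arrays several log2 units higher, while the 4 KO 6 h arrays were all near the floor.

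Cpa1 was high on the same arrays. It read 6.10, 12.20, 7.29, 2.33 and 9.75 at WT 0 h, 2.47, 10.42, 9.09, 2.33 and 2.35 at WT 6 h and 8.42, 2.45, 12.87 and 11.88 at WT 24 h. In KO jejunum it read 2.33, 4.82, 2.46, 5.71 and 5.49 at 0 h, 2.36, 2.33, 2.32 and 2.32 at 6 h and 2.33, 2.32, 2.32, 8.88 and 3.24 at 24 h. KO 24 h replicate 4 was the only KO array above 5.71.

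Cela1 and Clps again kept signal on every array. Cela1 was 4.55 to 13.52 and Clps 7.75 to 14.20 over the jejunum arrays. Clps did not always follow the others. At KO 0 h it was 8.94, 8.86 and 9.16 on replicates 2, 4 and 5, where Ctrb1 was 6.24 or higher. On replicates 1 and 3, where Ctrb1 was 2.54 or lower, Clps was 9.34 and 9.79. Cuzd1, by contrast, left the floor region on the arrays where the other genes were highest, reaching 8.07 on WT 24 h replicate 3 and 7.40 on WT 0 h replicate 2. Between the highest and the lowest WT 24 h array the 9 genes differed by 5.74 (Cuzd1) to 11.06 (Ctrb1) log2 units.

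**Figure D4:**
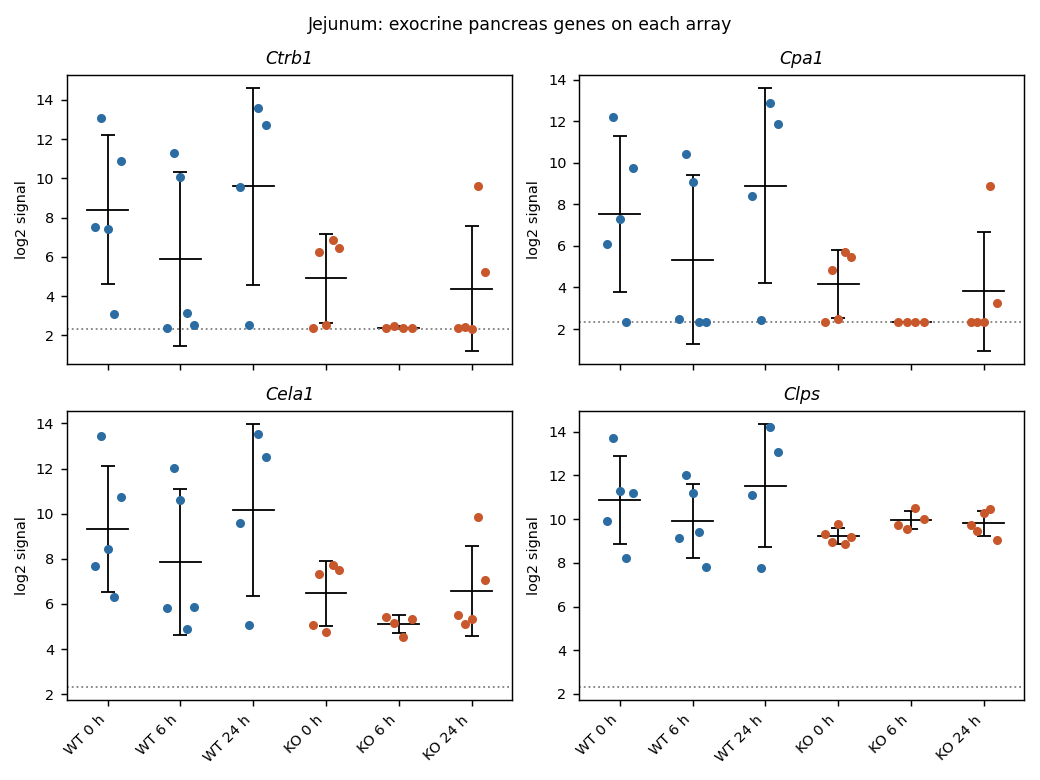
Log2 signal of 4 exocrine pancreas genes on each jejunum array by genotype and time (points, WT blue and KO orange), with the group mean and SD (black) and the table's floor (dotted). For Ctrb1 and Cpa1 every group but KO 6 h holds arrays near the floor and arrays well above it, and Cela1 and Clps stay above the floor throughout.

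KO minus WT jejunum at 24 h gave the largest mean differences of the pancreas genes. They ran from -1.73 (Clps) to -5.22 (Ctrb1), with a median of -4.34 over the 9 genes and 0.02 over all genes tested. None was called by limma, with the smallest adjusted p at 0.338 (Cpa1, -5.09 ± 2.04), while 8 of 9 had an unadjusted p under 0.05, and 0.704% of all genes were called. For all 9 genes the arrays of both groups overlapped. WT 24 h replicate 2 was as low as the low KO arrays, and KO 24 h replicate 4 was high. At 0 h the differences were all negative too, from -1.18 to -3.50, with 0 called by limma, 0 at an unadjusted p under 0.05 and 0.183% of all genes called. At 6 h 0 were called, 0 at an unadjusted p under 0.05, against 2.14% of all genes. The missing calls do not show that the genotypes were alike, as the SE of the 24 h difference of Ctrb1 was 2.21 log2 units.

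Over time in WT jejunum the pancreas genes differed by 1.61 to 3.72 between 24 h and 6 h (median 3.07). No listed gene was called by limma there, 1 of 19 at an unadjusted p under 0.05, against 0.755% of all genes. Against 0 h, 0 of 19 were called at 6 h (0 at an unadjusted p under 0.05, 0.432% of all genes) and at 24 h (2 and 1.4%). In KO jejunum 0 of 19 were called at 6 h against 0 h (0.66% of all genes), at 24 h against 0 h (0.689%) and at 24 h against 6 h (0.117%), with 0 at an unadjusted p under 0.05 in each. The differences of changes between genotypes called 0 of 19 at 6 h and at 24 h, as they called 0 of all genes, with 0 of the 19 at an unadjusted p under 0.05.

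Other marker lists moved with the pancreas genes in jejunum to different degrees. The mean of further exocrine pancreas genes was 4.10 on WT 24 h replicate 2 and 9.64 on WT 24 h replicate 3, the same arrays that held the lowest and highest set means. Genes of endocrine pancreas averaged 2.94 and 6.35 on those arrays. A list of stomach genes ran from 2.57 to 8.56 over the jejunum arrays and was not ordered like the pancreas set mean. At 0 h the KO minus WT differences of 6 stomach genes tested had a median of -5.42, with 0 called by limma and 6 at an unadjusted p under 0.05. At 6 h their median was -3.08, and Tff2, a trefoil peptide of gastric mucus, was called lower in KO (-8.64, limma adjusted p = 0.0455). On WT 6 h replicate 5, for example, stomach genes averaged 7.92 with a pancreas set mean of 3.68, and on WT 24 h replicate 4 they averaged 3.10 with a pancreas set mean of 11.50. The part of other tissue in these arrays was not tested.

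The spread among arrays of the same group was larger for most listed genes in colon, and for the pancreas genes in jejunum, than for most genes. As the list was chosen with earlier results of these data known, these ranks describe these arrays and are not independent support. The SD within groups had a median of 0.187 over all genes tested in colon, 0.791 over the 12 muscle genes, 1.01 over the 9 squamous genes and 1.90 over the 9 pancreas genes. Ctrb1 had the 4th, Cpb1 the 6th and Cpa1 the 9th largest SD of 13645 genes in colon (2.61, 2.41 and 2.28), and Myh1 the 22nd (1.76). The lowest listed genes in colon were Myh4 (0.215, rank 5187) and Actn3 (0.146, rank 9755). In jejunum the median SD was 0.243 over all genes, 3.01 over the 9 pancreas genes, 0.237 over the 6 muscle genes tested and 0.172 over the 4 squamous genes tested. Ctrb1 was 7th and Cpb1 9th there, with SDs of 3.51 and 3.35. The histogram of these SDs shows most pancreas genes in the far tail of both tissues, while the muscle and squamous genes tested in jejunum lie among the bulk of all genes there.

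**Figure D5:**
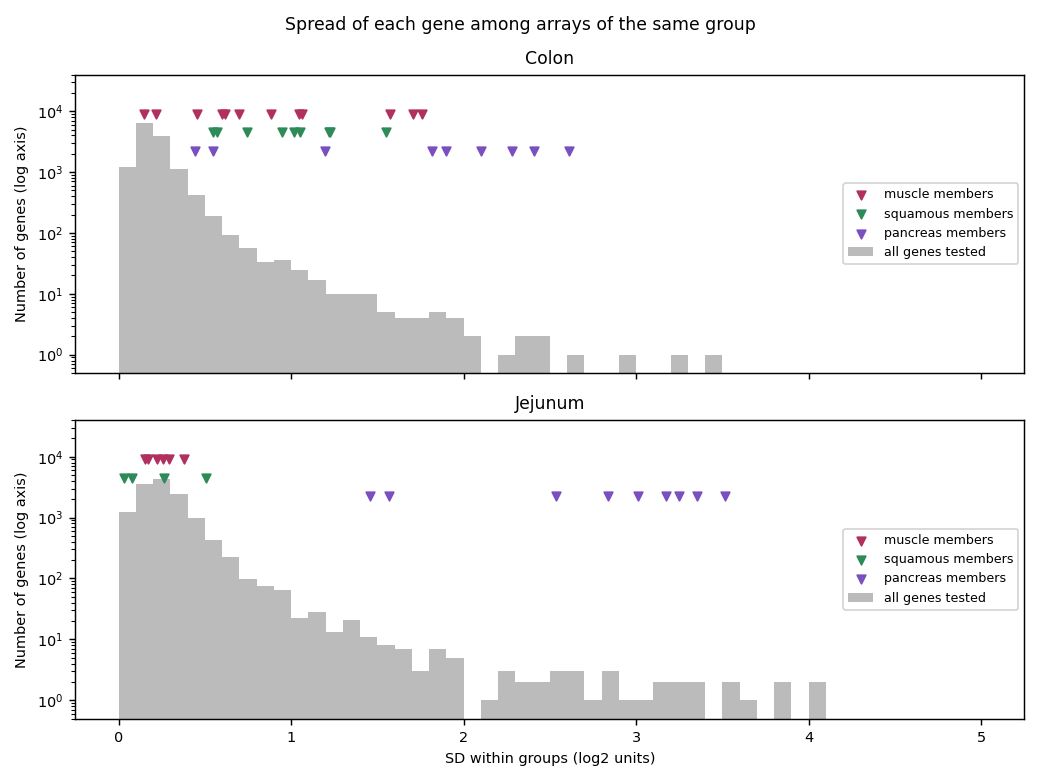
Number of genes (log axis) by the SD of their log2 signal within groups, for colon (top) and jejunum (bottom), with the listed genes that were tested marked as triangles. The pancreas genes reach 2.61 in colon and 3.51 in jejunum, against medians of 0.187 and 0.243 over all genes tested.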

How the data were processed

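Affymetrix arrays of whole colon and jejunum were used as the authors deposited them, as log2 signals normalized per tissue. GCRMA and RMA are named, without version or role, per the submitters' processing notes. Of 45101 probe sets, 34958 had 1 gene in the platform annotation, 932 several and 9211 none. One deposited column (1 in all) matched no sample and was not used. The sample without a column, colon KO 24 h replicate 3, was read from the deposited value table, which equals the other 55 columns. The number of arrays limits the precision.

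Members and gene lists were chosen with earlier results of these data known. Each gene was represented by its single-gene probe set of highest mean, and the dimmest 25% of genes were left out, leaving 13645. The fit was limma 3.58.1 in R 4.3.3 (trended eBayes, 28 arrays and 6 groups per tissue, 11 comparisons), with Benjamini-Hochberg adjustment over all genes and a threshold of 0.05. It was tested on simulated data. Values on every array are printed, per set and tissue, for at most 4 called members of largest difference and 2 uncalled members of largest range. Genes of other lists are named only where called in a comparison described, at most 3 per list and comparison. Myh4, Adipoq, Alb and the other genes singled out were chosen after their values were seen. Replicate numbers were not used to pair the arrays in the main fit. Deviations of same-numbered arrays had a median correlation of 0.01 in colon and 0.012 in jejunum. The correlations ran from -0.257 to 0.322 in colon and from -0.597 to 0.475 in jejunum. Of 65 such pairs per tissue, 15 in colon and 22 in jejunum were over 0.1. The design text says that replicates are different mice. The alternatives tried were the dim filter, robust eBayes, array centring, mean over probe sets, batch, the replicate block, only the groups compared, and leaving out arrays.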

Additional observations from a re-analysis of the deposited data

Results flagged for a closer look

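In 36 of 126 groups of arrays examined, 1 array stood far from the others of its group by Dixon's criterion. The groups are those of the set means and of genes chosen because they were called or had the widest range, and genes of a set share arrays. The count is therefore not comparable with the rate of about 1 in 20 groups that chance gives. The criterion sets a gap against the range of its group, so small differences near the floor are flagged too. WT 0 h replicate 2 of colon stood apart at 10.4 for Krt14 and 9.56 for Krt5. In colon, WT 6 h replicate 4 differed from its group at 5.58 for Krt14. Far from its group in colon was WT 6 h replicate 2, at 2.95 for Ctrb1. WT 24 h replicate 1 of colon stood apart at 5.96 for the muscle set mean, 8.47 for Myh8, 7.42 for Tnnc2 and 6.08 for Ttn. In colon, KO 0 h replicate 5 differed from its group at 7.42 for the pancreas set mean, 8.28 for Ctrb1 and 7.56 for Cpb1. Far from its group in colon was KO 0 h replicate 1, at 3.71 for Myh8, 3.63 for Myh1 and 3.16 for Tnnc2. KO 6 h replicate 5 of colon stood apart at 4.65 for the muscle set mean and 5.08 for Tnnc2. In colon, KO 24 h replicate 2 differed from its group at 4.22 for the muscle set mean, 3.87 for Myh8, 6.36 for Myh1, 4.79 for Tnnc2 and 3.19 for Ttn. Far from its group in colon was KO 24 h replicate 3, at 8.79 for the pancreas set mean, 9.74 for Ctrb1 and 9.67 for Cpb1. WT 0 h replicate 1 of jejunum stood apart at 2.45 for Ttn, against 2.32 to 2.33 on the others. In jejunum, WT 6 h replicate 2 differed from its group at 4.29 for Ttn. Far from its group in jejunum was WT 24 h replicate 2, at 2.71 for the squamous set mean (others 2.59 to 2.60) and 4.33 for Sprr1a (others 3.23 to 3.28). WT 24 h replicate 4 of jejunum stood apart at 2.60 for Ttn, against 2.32 on the others. In jejunum, KO 0 h replicate 3 differed from its group at 3.40 for Ckm. Far from its group in jejunum was KO 0 h replicate 2, at 2.41 for Lor. KO 6 h replicate 3 of jejunum stood apart at 2.49 for Ctrb1, against 2.36 on the others. In jejunum, KO 24 h replicate 5 differed from its group at 2.71 for the squamous set mean (others 2.56 to 2.60) and 3.75 for Lor (others 3.12 to 3.14). Far from its group in jejunum was KO 24 h replicate 4, at 8.72 for the pancreas set mean and 8.88 for Cpa1. KO 6 h replicate 5 of colon was the low array of its group, as were KO 0 h replicates 2 (Lor) and 3 (Ckm) of jejunum, and the others were high. For Myh4 in colon the change from 0 h to 6 h differed between the genotypes by 1.34 in the interaction term (limma adjusted p = 0.00287). Outside KO 6 h it stood at the floor on all arrays but WT 0 h replicate 2, so the pooled SE rests mostly on groups without spread.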

How the results depend on the processing

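None of the 21 calls changed sign under an alternative that was run for it. In colon, 11 listed genes were called at KO 6 h against 0 h, 7 when only the groups compared were fitted, 8 to 14 with 1 array left out, and 10 when KO 0 h replicate 3 and WT 0 h replicate 2 were both left out, an alternative chosen after seeing the data. At KO 24 h against 6 h the 8 calls became 6 to 12 with 1 array left out. With the replicate number as a block, the counts were 11 and 9, the addition being Myh2 (-2.03, limma adjusted p = 0.0486), and the block changed no other call. For KO minus WT colon at 6 h the count of 1 became 0 with batch as a term and 1 to 2 with 1 array left out. The colon interaction at 6 h had 0 calls in place of 1 when only the groups compared were fitted. In jejunum 1 gene was called in place of 0 at KO 6 h against 0 h with only the groups compared (Cuzd1, -0.16), and 1 with batch as a term for KO minus WT at 6 h and at 24 h (Krt5, 0.32 and 0.36, against -0.0042 and 0.03 without that term, so that the sign at 6 h turned). The Krt5 values with the batch term rest on KO 0 h replicate 1, the 1 KO array shared with the WT batch. Its Krt5 of 3.22 was the highest in jejunum. The range of set means over arrays was 4.01 for colon squamous genes, 3.14 with the mean over probe sets, and 2.17 to 4.01 with 1 array left out. It was 0.316 for jejunum muscle genes, 0.202 with the mean over probe sets and 0.617 with array medians centred, and 0.271 for jejunum squamous genes and 0.526 with centring. Leaving out 1 array gave 3.01 to 3.22 for colon muscle, 4.88 to 5.15 for colon pancreas, 0.281 to 0.316 for jejunum muscle, 0.235 to 0.271 for jejunum squamous and 8.65 to 9.17 for jejunum pancreas genes. The causes were not tested. Signals at the floor bound the differences of dim genes.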

Other observations

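Liver genes were high on 1 colon array. The mean of the liver list was 8.04 on KO 6 h replicate 4 and 4.63 or lower on the other 27 colon arrays. On that array Alb, serum albumin, reached 11.2. The muscle set mean of the array was 6.08 and its pancreas set mean 3.76, both within the range of the other KO 6 h arrays.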
